A study of Homo sapiens with 6 samples.

Results

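Tight junctions are the belt-like contacts near the apical border of epithelial cells that seal the space between neighbours and separate the apical from the basolateral membrane. Claudins and the MARVEL proteins occludin and tricellulin span the membrane in the strands, junctional adhesion molecules sit beside them, and zonula occludens proteins bind their tails inside the cell and tie them to actin. Pancreatic duct epithelium and many pancreatic carcinomas carry several claudins, and loss of tight junctions is a textbook feature of epithelial-mesenchymal transition (EMT), the change that the study examined in cells given these media.

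The 9 genes described here were taken by name from the 58735 rows of the gene table. They are the claudins CLDN1, CLDN3, CLDN4, CLDN7 and CLDN12, the MARVEL protein genes OCLN and MARVELD2, the junctional adhesion molecule gene F11R and the scaffold gene TJP1. Each name had 1 row, and all 9 were among the 14046 genes that passed the filter on low counts. The 6 libraries of polyadenylated RNA came from PANC-1, a human cell line established from a pancreatic ductal adenocarcinoma, here wild-type. Of these, 3 came from cells given conditioned medium from macrophages co-cultured with PANC-1 cells carrying an empty overexpression vector (CM-Vector), and 3 from cells given medium from macrophages co-cultured with PANC-1 cells overexpressing MLKL (CM-MLKL), the protein that ruptures the plasma membrane in necroptosis. A time of 72 h is given for the series, per the methods the length of co-culture, and the macrophages were made from the THP-1 monocyte line. The cells sequenced carried neither construct. Both groups received medium that had held macrophages and tumour cells, and cells without such medium were not analysed here.

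Library totals ranged from 15838403 to 17885429 counts. CM-Vector replicate 1 stood apart from its group, with Pearson's r of log2 levels across genes of 0.923 and 0.922 with replicates 2 and 3, against 0.988 between those, so the fold changes of the genes named are given with and without it. Levels are given as CPM, that is counts scaled to the same library total after TMM (trimmed mean of M values) normalisation. The duct markers KRT8, KRT18 and KRT19 were abundant in each library, but CDH1, the gene of E-cadherin, ranged from 0 to 1.09 CPM and EPCAM from 1.82 to 4.41 CPM. The 8 duct markers summed to 4862 to 5664 CPM with CM-Vector and 2958 to 4094 CPM with CM-MLKL, most of it KRT8. The 12 macrophage markers summed to 5.62 to 8.67 and 4.08 to 5.26 CPM, with PTPRC, CD86 and C1QA at 0 throughout. Most of this sum came from CD14 and ITGAM. CD14 was at 3.87 to 5.41 CPM with CM-Vector and 1.92 to 2.97 CPM with CM-MLKL. ITGAM was at 1.03 to 3.68 CPM with CM-Vector and 0.575 to 0.931 CPM with CM-MLKL. The 6 endothelial markers summed to 0.665 to 0.882 and 0.337 to 0.548 CPM with CDH5 at 0, and the 6 fibroblast markers to 0.184 to 0.484 and 0.287 to 0.822 CPM with DCN at 0. Their highest single values were KDR at 0.686 CPM in CM-Vector replicate 1 and FAP at 0.493 CPM in CM-MLKL replicate 3. MLKL itself was at 12.6, 3.45 and 2.71 CPM with CM-Vector and at 5.92, 3.37 and 6.08 CPM with CM-MLKL.

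None of the 9 genes passed the threshold between the groups in the edgeR test over 6 libraries with the filter on low counts. CLDN12 and CLDN3 came nearest to it. CLDN12 was at 33.5 ± 3.75 CPM with CM-MLKL against 19.1 ± 3.02 CPM with CM-Vector (SD, n = 3), and the groups did not overlap. CLDN3 was at 12.4 ± 3.67 against 27.1 ± 16.7 CPM, and without CM-Vector replicate 1 it was past the threshold in the edgeR test, 2.95-fold lower with CM-MLKL. CLDN4, with the highest level of the 9, was at 511 ± 115 against 476 ± 188 CPM.

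The start regions of CLDN3 and CLDN12 are shown because these genes came nearest to the threshold and lie at opposite ends of base composition. The GC content of the longest transcript was 69.2% for CLDN3 and 38.1% for CLDN12, the highest and the lowest of the 9. The sequences are RefSeq's on GRCh38.p14, read 5′ to 3′ on the strand of the gene, with GC boxes (GGGCGG or its reverse complement CCGCCC) in capitals. CLDN3 is shown for the 250 bases before its start, at chr7:73770271-73770520 on the minus strand, and holds 4 of them. CLDN12 is shown for the 142 bases of its 250 that lie outside annotated exons, at chr7:90403211-90403352 on the plus strand, and holds none.
CLDN3: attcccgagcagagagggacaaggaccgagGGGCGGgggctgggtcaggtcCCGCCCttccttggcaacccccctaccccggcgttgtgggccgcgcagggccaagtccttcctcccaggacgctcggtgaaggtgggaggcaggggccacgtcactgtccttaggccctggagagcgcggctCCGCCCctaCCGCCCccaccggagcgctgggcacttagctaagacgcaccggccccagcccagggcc
CLDN12: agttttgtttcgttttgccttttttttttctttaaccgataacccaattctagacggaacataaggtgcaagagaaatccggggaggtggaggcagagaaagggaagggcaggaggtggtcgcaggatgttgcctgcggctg

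SNAI1 and ZEB1, transcription factors known to repress epithelial genes in EMT, bind the E-box CACCTG, which reads as CAGGTG on the other strand. Windows of the 250 bases before a RefSeq start were searched for it on both strands. Entries were found for 8 of the 9 genes, F11R being the exception, with 13 windows in all. An E-box occurred in 4 of the 13 windows, from CLDN7, OCLN and TJP1, and in 17.5% of the 35116 windows of all genes. A GC box occurred in 9 of the 13 windows, from 7 genes, and in 42.6% of all windows. Stretches of 30 bases that hold an E-box are shown with it in capitals, in the order CLDN7 (chr17:7262479-7262508, minus strand), OCLN (chr5:69492502-69492531 and chr5:69492645-69492674, plus strand) and TJP1 (chr15:29969120-29969149, minus strand). Counted to the first base of the motif, the E-boxes lie 20 and 9 bases before a CLDN7 start, 33 and 133 bases before 2 OCLN starts, and 88 bases before a TJP1 start that lies outside the GENCODE 29 span of the gene. The CLDN7 window, which holds 2 further E-boxes 174 and 135 bases before the start, and the OCLN window with its E-box at 33 bases fall within exons of other transcripts of the same gene. A match of letters is a description and shows no binding.
CLDN7: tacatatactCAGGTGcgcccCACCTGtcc
OCLN, upstream start: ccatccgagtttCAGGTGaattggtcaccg
OCLN, downstream start: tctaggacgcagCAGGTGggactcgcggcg
TJP1: gcggccggcgcgCAGGTGgcccggcctcgc

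The comparison asked how the genes of the tight junction differed between cells given the 2 media. In the quasi-likelihood test of edgeR, with p-values adjusted over all genes tested (Benjamini-Hochberg), 0 of the 9 genes passed an adjusted p of 0.05, against 0.513% of all genes. At an unadjusted p under 0.05 there were 2 of 9, CLDN3 and CLDN12, against 6.22% of all genes. DESeq2 also called 0 of 9, against 1.13% of all genes, and limma-voom called 0 of 9, against 0.520% of all genes. At an unadjusted p under 0.05, DESeq2 had 2 of 9, against 1027 of 26578 genes. In limma-voom 1 of 9 reached that level, against 837 of 14046 genes. The fit without a filter on low counts called 1, CLDN1, against 0.937% of all genes. The groups did not overlap for 2 of 9 genes, CLDN12 and F11R, both higher with CM-MLKL, and for 6.43% of all genes in that direction and 5.50% in the other. The median log2 fold change was 0.02 over the 9 genes and -0.04 over all genes. A positive value was found for 5 of the 9 and for 6255 of 14046 genes. In bulk RNA, a gene expressed by fewer cells and a gene with less RNA per cell cannot be told apart.

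**Figure D1:**
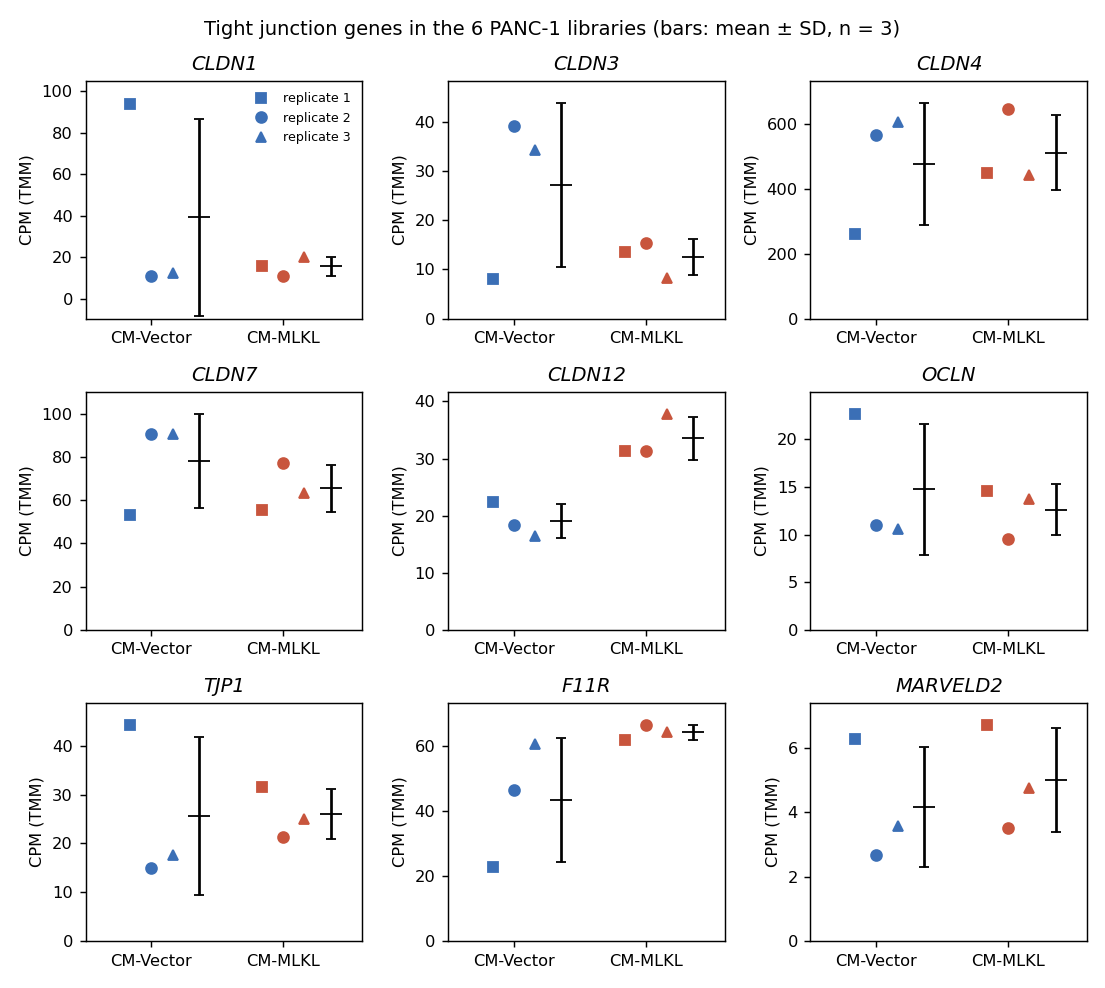
Levels of the 9 tight junction genes in each library, as TMM-scaled CPM on linear axes, with a symbol for each replicate and the mean ± SD of 3 libraries beside each group. The 3 CM-MLKL values of CLDN12 lie above all CM-Vector values, and CM-Vector replicate 1 (squares) lies far from replicates 2 and 3 for most genes, as for CLDN1 at 94.1 CPM against 11.2 and 12.4 CPM.

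The level of CM-Vector replicate 1 lay outside those of the other 5 libraries for 7 of the 9 genes. It was the highest of 6 for CLDN1, OCLN and TJP1, as it was for 32.4% of all genes, and the lowest for CLDN3, CLDN4, CLDN7 and F11R, as it was for 27.7% of all genes. Without it, 1 of the 9 genes passed the threshold, CLDN3 with a lower level, against 0.755% of all genes called lower and 2.20% called in either direction. The groups then did not overlap for 3 genes that were higher with CM-MLKL (CLDN12, TJP1 and F11R), against 15.9% of all genes, and for 2 that were lower (CLDN3 and CLDN7), against 17.5%. DESeq2 without that library called 2 of the 9 genes, CLDN3 lower and CLDN12 higher, against 3.43% of all genes. The edgeR fit with offsets for GC content and length called the same 2 genes without that library, against 8.96% of all genes. Both of these fits were chosen after the data had been seen.

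CLDN3 encodes a sealing claudin of simple epithelia and a receptor of Clostridium perfringens enterotoxin. The gene has 1 exon and lies at chr7:73768997-73770270 on the minus strand (GRCh38, GENCODE 29, as for all gene spans given). Its level was 8.04, 39.2 and 34.2 CPM in CM-Vector replicates 1, 2 and 3 and 13.6, 15.4 and 8.33 CPM in the CM-MLKL replicates. CM-Vector replicates 2 and 3 were thus above all other libraries, and replicate 1 was below them all. The log2 fold change was -1.12 (SE 0.505, edgeR adjusted p = 0.796), with an approximate 95% interval from -2.24 to -0.0061. Without CM-Vector replicate 1 it was -1.53 (SE 0.284, adjusted p = 0.0223), and leaving out any other library gave -1.30 to -0.75 with no call. With the offsets for GC content and length over 6 libraries it was -0.83 (SE 0.339, adjusted p = 0.418). The summed duct markers, mostly KRT8, were also lower in every CM-MLKL library than in every CM-Vector library. Taken alone, KRT8, KRT19 and EPCAM did not overlap between the groups, while KRT7, KRT18, SOX9 and MUC1 did. Of all genes that passed the filter on low counts, 5.50% did not overlap in that direction. CDH1, which did not pass that filter, was too low to compare. Its lowest value with CM-Vector was 0.196 CPM and its highest with CM-MLKL was 0.172 CPM, a gap near the counting floor. The part of these markers in the level of CLDN3 was not tested.

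CLDN4, the neighbour of CLDN3 on chromosome 7, encodes another receptor of the enterotoxin and spans chr7:73799542-73832693 on the plus strand. Its level was 260, 564 and 604 CPM with CM-Vector and 448, 644 and 440 CPM with CM-MLKL, so the groups overlapped. The log2 fold change was 0.10 (SE 0.332, adjusted p = 0.999, edgeR), with an approximate 95% interval from -0.63 to 0.84, and it turned to -0.16 without CM-Vector replicate 1. Both CLDN3 and CLDN4 were lowest of all libraries in CM-Vector replicate 1. They differed in where the CM-MLKL libraries lay: CLDN4 in CM-MLKL replicate 2 exceeded every CM-Vector library, while CLDN3 stayed below CM-Vector replicates 2 and 3 in all of them.

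CLDN7 encodes a claudin found on the lateral as well as the apical membrane and a partner of EpCAM, and lies at chr17:7259903-7263983 on the minus strand. It was measured at 52.9, 90.7 and 90.8 CPM with CM-Vector and at 55.6, 77.2 and 63.4 CPM with CM-MLKL. Replicates 2 and 3 of CM-Vector were alike and lay above every CM-MLKL library, while replicate 1 lay below them all. The log2 fold change was -0.26 (SE 0.277, adjusted p = 0.999), and -0.44 without CM-Vector replicate 1 (SE 0.223, adjusted p = 0.392). Of its exons, 38 bases (1.52%) lie opposite ELP5, and reads from them cannot be assigned without strand.

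CLDN1, whose product is required for the skin barrier in mice, spans chr3:190305701-190322475 on the minus strand. Its level was 94.1, 11.2 and 12.4 CPM in CM-Vector replicates 1, 2 and 3 and 15.7, 11.1 and 20.3 CPM with CM-MLKL. The group mean of 39.2 ± 47.5 CPM with CM-Vector thus rested on replicate 1, which was 7.97 times the mean of the other 2, against 15.7 ± 4.60 CPM with CM-MLKL. The log2 fold change was -1.32 over 6 libraries (SE 0.707, adjusted p = 0.932) and reached an adjusted p of 0.0122 in the fit without a filter on low counts. It turned to 0.44 without CM-Vector replicate 1 (SE 0.281, adjusted p = 0.515).

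CLDN12 encodes a claudin without the PDZ-binding tail by which most claudins bind zonula occludens proteins. It spans chr7:90383721-90513402 on the plus strand. Its level was 22.4, 18.4 and 16.5 CPM with CM-Vector and 31.4, 31.3 and 37.8 CPM with CM-MLKL, and every CM-MLKL library lay above every CM-Vector library. The level was 1.76-fold higher with CM-MLKL, or 0.81 on the log2 scale (SE 0.255, unadjusted p = 0.00924, edgeR adjusted p = 0.393), with an approximate 95% interval from 0.25 to 1.38. In CM-Vector replicate 1 the level of CLDN12 was 1.28 times the mean of replicates 2 and 3, and the log2 fold change without that library was 0.97 (SE 0.231, adjusted p = 0.0634). Over the settings tried it ranged from 0.72 to 0.97, and the adjusted p from 0.0102 to 0.9998. CLDN12 shares 347 bases of exon (5.15%) with GTPBP10 and 201 bases (2.98%) with CDK14 on the same strand, so some reads could belong to either gene.

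Likeness to CLDN12 was measured by the root-mean-square difference of log2 CPM, centred on each gene's mean over the 6 libraries. The 3 genes with the smallest difference were BASP1 (0.122), CD83 (0.125) and RAB3B (0.126). They were chosen over these same libraries, so their pattern across the groups follows from the choice.

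**Figure D2:**
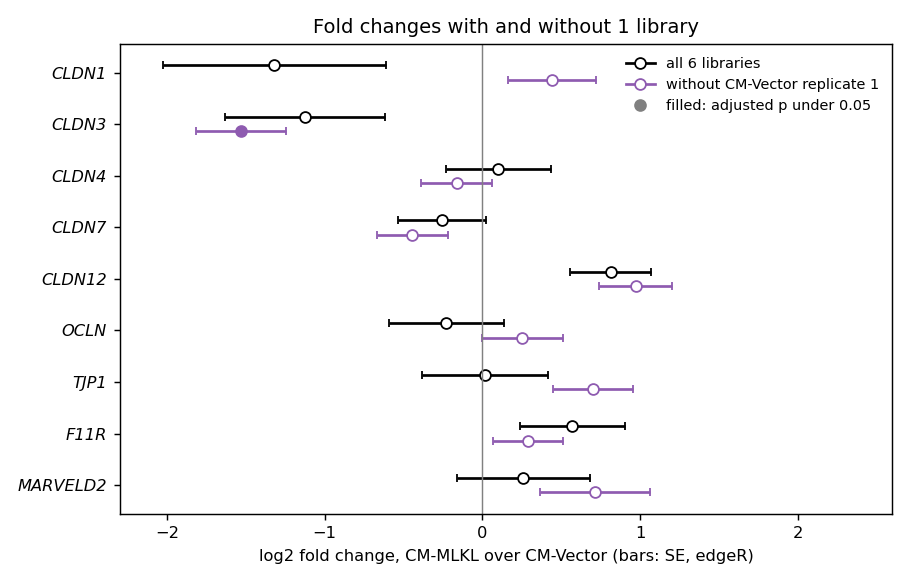
Log2 fold change of each of the 9 tight junction genes, CM-MLKL over CM-Vector, by edgeR with bars of 1 SE, over all 6 libraries (black) and without CM-Vector replicate 1 (purple). Filled symbols passed an adjusted p of 0.05: only CLDN3 without that library is filled (-1.53), and CLDN1, CLDN4 and OCLN change sign between the fits.

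The make-up of the claudin messages was compared per length, as CPM per kb of annotated exon. The length was the union of the exons of all transcripts of a gene, and the shares depend on that choice. Summed over the 5 claudins, the level per kb was 167 ± 48.2 with CM-Vector and 154 ± 29.3 with CM-MLKL (SD, n = 3). CLDN4 held 49.4%, 62.2% and 65.0% of this sum in the CM-Vector libraries and 69.4%, 73.0% and 68.5% in the CM-MLKL libraries. The groups did not overlap (exact permutation test, two-sided, p = 0.1, the smallest that 3 against 3 allows, and 0.5 when adjusted over the 10 quantities compared). CLDN3 held 5.64%, 15.9% and 13.6% in the CM-Vector libraries and 7.79%, 6.43% and 4.78% in the CM-MLKL libraries. The share of CLDN7 ranged from 18.4% to 19.0% with CM-Vector and from 16.3% to 18.6% with CM-MLKL, so it varied little among the libraries. CLDN1 held 23.0% in CM-Vector replicate 1 and from 1.58% to 4.06% in the other 5 libraries, and CLDN12 held 1.24% to 2.97% and 2.48% to 4.10%. The log2 ratio of CLDN4 to CLDN3 per kb was 3.13, 1.96 and 2.26 in the CM-Vector libraries and 3.16, 3.51 and 3.84 in the CM-MLKL libraries. For this ratio CM-Vector replicate 1 lay just below the CM-MLKL libraries, and the groups did not overlap (exact permutation p = 0.1, adjusted 0.5).

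**Figure D3:**
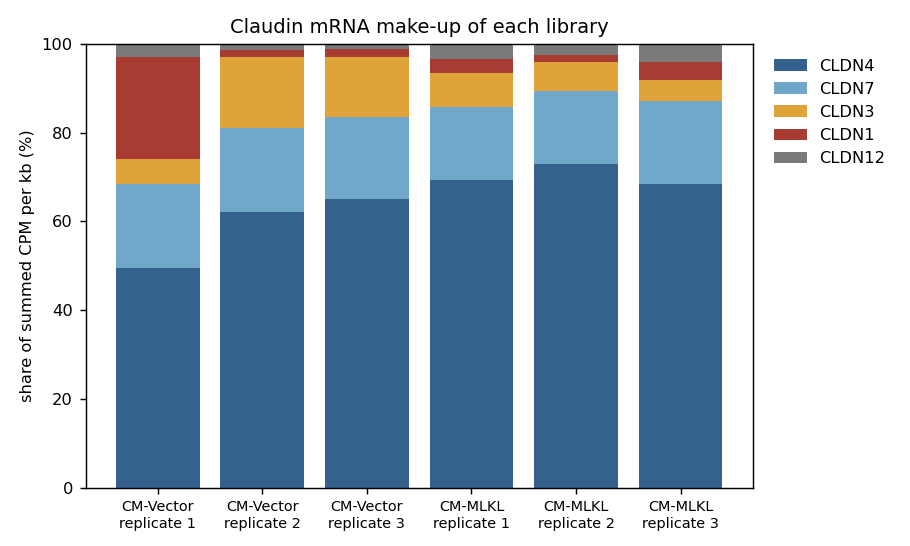
Share of each claudin in the summed CPM per kb of CLDN1, CLDN3, CLDN4, CLDN7 and CLDN12, in percent, in each library. CLDN4 fills 49.4% to 65.0% of the CM-Vector bars and 68.5% to 73.0% of the CM-MLKL bars, and the large CLDN1 share of 23.0% is seen in CM-Vector replicate 1 alone.

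OCLN encodes occludin, the MARVEL protein found along the whole strand. The gene lies at chr5:69492292-69558104 on the plus strand. Its level was 22.7, 11 and 10.6 CPM with CM-Vector and 14.5, 9.57 and 13.7 CPM with CM-MLKL. The groups overlapped, and the edgeR log2 fold change, -0.23 (SE 0.362, adjusted p = 0.999), turned to 0.25 without CM-Vector replicate 1 (adjusted p = 0.703). Its pseudogene OCLNP1 held 4 counts in all libraries together. MARVELD2 encodes tricellulin, which gathers where 3 cells meet, and is a neighbour of OCLN at chr5:69415065-69444330 on the plus strand. It had the lowest level of the 9, at 6.27, 2.66 and 3.57 CPM with CM-Vector and 6.72, 3.50 and 4.77 CPM with CM-MLKL. The values overlapped, and the log2 fold change was 0.26 (SE 0.423, adjusted p = 0.999), or 0.71 without CM-Vector replicate 1 (SE 0.347, adjusted p = 0.372).

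F11R encodes junctional adhesion molecule A, an immunoglobulin-type protein that helps to place the polarity complex at the forming junction. It spans chr1:160995211-161021348 on the minus strand. Its level was 22.7, 46.3 and 60.5 CPM with CM-Vector and 61.6, 66.2 and 64.3 CPM with CM-MLKL. All CM-MLKL libraries were above all CM-Vector libraries, of which replicate 3 came close to them. The mean level was 1.48-fold higher with CM-MLKL, or 0.57 on the log2 scale (SE 0.332, adjusted p = 0.980), and 0.29 without CM-Vector replicate 1 (adjusted p = 0.602). On the same strand, F11R shares 1853 bases of exon (36.6%) with the annotated gene AL591806.3, which held 5 counts in all.

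TJP1 encodes ZO-1, the PDZ scaffold that binds claudin tails, occludin and junctional adhesion molecules and links them to actin. It spans chr15:29699367-29968865 on the minus strand. Its level was 44.3, 15.1 and 17.7 CPM with CM-Vector and 31.6, 21.4 and 25.1 CPM with CM-MLKL. The CM-MLKL libraries lay between CM-Vector replicate 1 and the other 2, and the log2 fold change was 0.02 (SE 0.401, adjusted p = 0.999, edgeR). Without CM-Vector replicate 1 it was 0.70 (SE 0.255, unadjusted p = 0.0200, adjusted p = 0.220), and without CM-Vector replicate 2 it was -0.24, so its direction depended on which library was left out.

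Per kb of exon, the levels with CM-MLKL fell in the order CLDN4 (93.7 to 137 CPM per kb), CLDN7 (22.3 to 31.0), F11R (12.2 to 13.1), CLDN3 (6.54 to 12.1), CLDN12 (4.65 to 5.61), CLDN1 (3.04 to 5.55), TJP1 (1.90 to 2.81), OCLN (1.42 to 2.15) and MARVELD2 (0.653 to 1.25). The ranges of CLDN12 and CLDN1 overlapped, as did those of TJP1 and OCLN. The length used was the union of all annotated exons, and the order depends on that choice. The union was 6741 bases for CLDN12 and 11265 for TJP1, against 3565 and 7950 in their longest transcripts. For CLDN3 both lengths were 1274 bases. With CM-Vector the level of CLDN3, from 6.31 to 30.7 CPM per kb, overlapped that of CLDN7, from 21.2 to 36.4. CLDN1 then ranged from 3.05 to 25.7 and F11R from 4.49 to 11.9 CPM per kb, both overlapping CLDN3, while MARVELD2, at 0.496 to 1.17, was again below the others.

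Base composition moved with the libraries. Across 13977 genes, the deviation of a gene from its mean over 6 libraries had a Pearson's r with GC content of -0.379 in CM-Vector replicate 1, 0.216 and 0.327 in replicates 2 and 3, and -0.174, 0.597 and -0.517 in the CM-MLKL replicates. These correlations are across genes, which share a library and are not independent replicates. In CM-Vector replicate 1, CLDN3 deviated by -1.01 on the log2 scale where the trend of all genes on GC content and length gave -0.51, and CLDN7 by -0.40 where it gave -0.36. CLDN1 deviated by 2.30 against a trend of 0.33, CLDN4 by -0.86 against -0.11, and F11R by -1.15 against 0.18. The deviations of OCLN (0.79 against 0.53) and MARVELD2 (0.52 against 0.32) were nearer to the trend, and CLDN12 deviated by -0.17 where the trend gave 0.42. TJP1 deviated by 0.87 against a trend of 0.41. The trend thus lay nearer to the deviation for CLDN7, OCLN and MARVELD2 than for CLDN3 and TJP1, and far from it for CLDN1 and CLDN4. It had the opposite sign for F11R and CLDN12. The part of GC content and length in these deviations was not tested. With the trends as offsets over all 6 libraries, the log2 fold change of CLDN12 was 0.90 (SE 0.192, edgeR adjusted p = 0.0772). In that fit 0 of the 9 genes passed, against 1.12% of all genes. An unadjusted p under 0.05 was reached by 2 of the 9, against 1503 of 14046 genes.

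**Figure D4:**
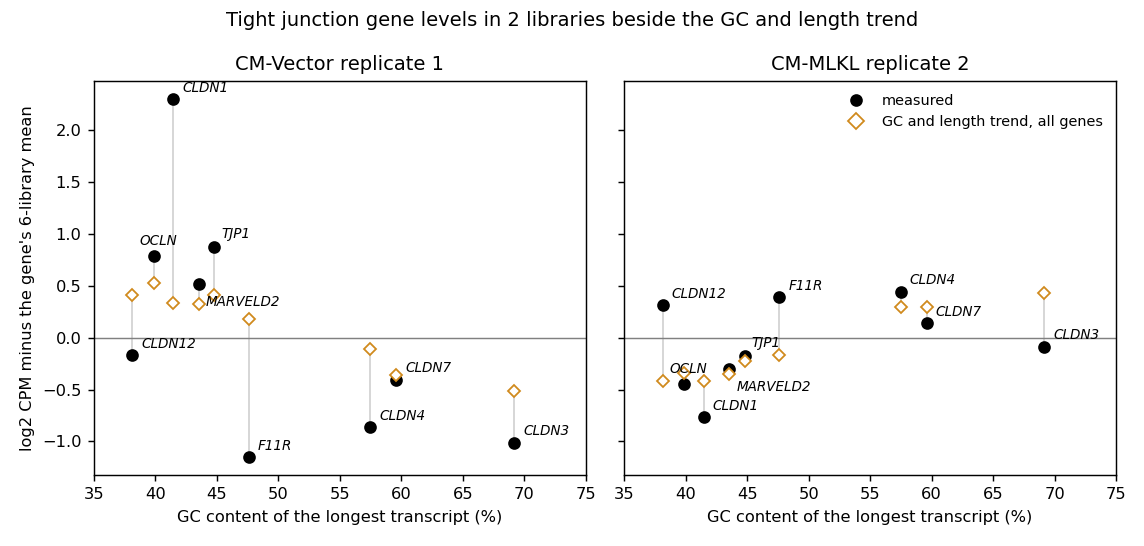
Deviation of the 9 tight junction genes from their own mean over 6 libraries (black, log2 CPM) and the trend of all genes on GC content and length (open diamonds), against the GC content of the longest transcript in percent, in CM-Vector replicate 1 and CM-MLKL replicate 2. In the former the trend falls with GC content, and CLDN1 (2.30 measured, 0.33 by trend) and F11R (-1.15 measured, 0.18 by trend) lie far from it.

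Of 51 other tight junction genes listed, 50 were in the table, 5 had no count in any library and 32 were tested. None of the 32 passed the threshold in edgeR, against 0.513% of all genes, and 3 had an unadjusted p under 0.05, against 6.22% of all genes. DESeq2 called 1 of the 35 to which it gave an adjusted p, against 1.13% of all genes, and limma-voom called 0 of 32, against 0.520%. Their median log2 fold change was -0.03, with 15 positive. Without CM-Vector replicate 1 it was 0.11, against 0.05 over all genes. In that fit 1 gene was called higher (ESAM) and 1 lower (TJP3), against 2.20% of all genes called. ESAM encodes an adhesion molecule of the same immunoglobulin family as F11R, best known from endothelium and platelets. Its level was 109, 82.6 and 94.3 CPM with CM-Vector and 177, 279 and 170 CPM with CM-MLKL. The groups did not overlap, and the level was 2.19-fold higher with CM-MLKL, at 1.13 on the log2 scale (SE 0.268, adjusted p = 0.148, edgeR). It passed the threshold in DESeq2 (adjusted p = 0.0194) and, by edgeR, without a filter on low counts (adjusted p = 0.0170) and without CM-Vector replicate 1 (adjusted p = 0.0419). The 6 endothelial markers summed to 0.665 to 0.882 CPM with CM-Vector and 0.337 to 0.548 CPM with CM-MLKL, and the source of the ESAM reads was not tested.

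TJP3 encodes ZO-3, a scaffold of epithelial junctions related to ZO-1. Its level was 2.65, 12.1 and 12.2 CPM with CM-Vector and 2.24, 5.46 and 4.22 CPM with CM-MLKL. CM-Vector replicates 2 and 3 were above all CM-MLKL libraries and replicate 1 was not, which was also the case for CLDN3 and CLDN7. The log2 fold change was -1.17 (SE 0.557, adjusted p = 0.846, edgeR), and -1.59 without CM-Vector replicate 1 (adjusted p = 0.0399). CRB3, an apical polarity protein, had 21, 75 and 29 counts in the CM-Vector libraries and 15, 18 and 17 in the CM-MLKL libraries, and its log2 fold change was -1.28 (SE 0.573, adjusted p = 0.796). CM-Vector replicate 2 stood above the other libraries for CRB3, and the log2 fold change was -0.47 without it and -1.63 without CM-Vector replicate 1 (adjusted p = 0.104).

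The claudins CLDN14 and CLDN6 had few counts. CLDN14 had 9, 0 and 3 counts in the CM-Vector libraries and 13, 15 and 15 in the CM-MLKL libraries, and its log2 fold change was 1.94 (SE 0.758, adjusted p = 0.635, edgeR). It was 3.15 without CM-Vector replicate 1 (adjusted p = 0.0984) and 1.42 without CM-Vector replicate 2, and with the GC and length offsets it passed without CM-Vector replicate 1 (3.26, adjusted p = 0.0302). Of its exons, 132 bases lie opposite AP000695.2, an antisense gene with 473 counts in all. CLDN6 had 6, 8 and 4 counts in the CM-Vector libraries and 17, 10 and 11 in the CM-MLKL libraries (log2 fold change 1.13, SE 0.526, adjusted p = 0.833, and 1.06 without CM-Vector replicate 1), and 40 bases of its exons lie opposite TNFRSF12A, which held 56889 counts. Reads from such stretches cannot be assigned without strand, so the levels of both claudins are uncertain. YBX3, a Y-box protein that binds ZO-1, and ARHGEF2, an exchange factor for small GTPases held at junctions by cingulin, were with ESAM the most abundant of the 32. Their log2 fold changes were -0.02 (SE 0.217) and -0.08 (SE 0.269), each with an adjusted p of 0.999, and they were 0.016 and 0.21 without CM-Vector replicate 1.

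**Figure D5:**
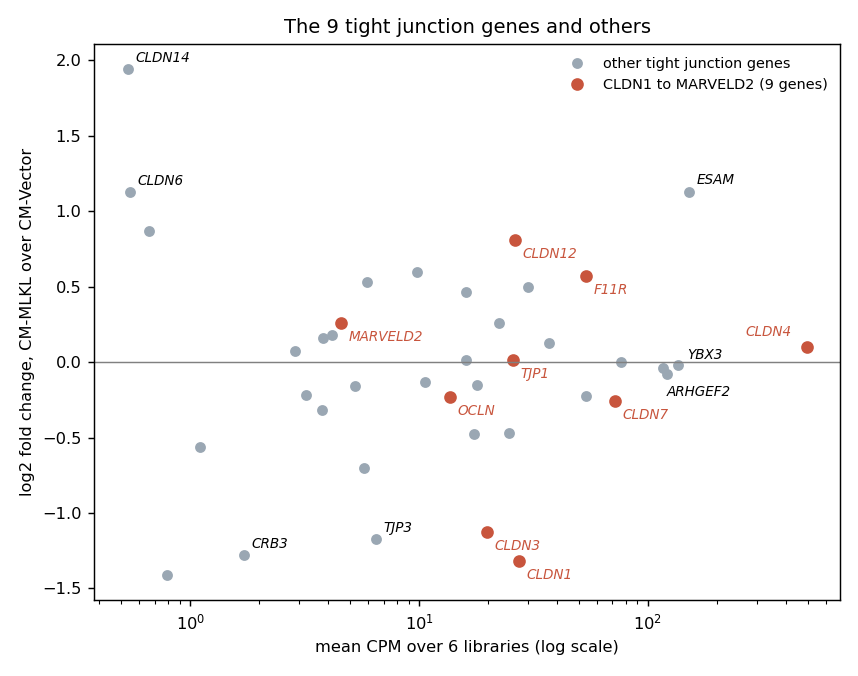
Log2 fold change by edgeR (CM-MLKL over CM-Vector) against the mean CPM over 6 libraries on a log axis, for the 9 tight junction genes (red) and the other tight junction genes reported on here (grey). ESAM (1.13) stands apart among the abundant genes, CLDN3 (-1.12) and CLDN1 (-1.32) are the lowest of the 9, and no point passed an adjusted p of 0.05.

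Of 24 genes for regulators and partners of the junction, 17 were tested, none passed the threshold in edgeR, against 0.513% of all genes, and 4 had an unadjusted p under 0.05, against 6.22% of all genes. DESeq2 called 1 of the 20 to which it gave an adjusted p, against 1.13% of all genes, and limma-voom called 0 of 17, against 0.520%. Without CM-Vector replicate 1, edgeR called 1 of 17, against 2.20% of all genes. DESeq2 without that library called 2 of 17, both lower, against 3.43% of all genes. The edgeR fit with the GC and length offsets then called 2 of 17 higher and 3 lower, against 8.96% of all genes in either direction. These last 2 fits were chosen after the data had been seen. The median log2 fold change was -0.36, against -0.04 over all genes. Without CM-Vector replicate 1 it was 0.37, against 0.05 over all genes. ELF3, an ETS factor of epithelia, was at 15.9, 36.9 and 31.5 CPM with CM-Vector and 9.14, 12.8 and 9.15 CPM with CM-MLKL. Every CM-MLKL library was below every CM-Vector library, and the level was 2.71-fold lower, at -1.44 on the log2 scale (SE 0.351, adjusted p = 0.167, edgeR). It passed without CM-Vector replicate 1 (log2 fold change -1.69, adjusted p = 0.00681) and in DESeq2 (adjusted p = 0.0185). By edgeR it also passed without a filter on low counts (adjusted p = 0.00628). Of its exon bases, 9.23% lie opposite ELF3-AS1, which held 69 counts.

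EPCAM, whose product binds and stabilises CLDN7 and CLDN1, was at 3.28, 4.41 and 3.26 CPM with CM-Vector and 2.01, 1.82 and 2.08 CPM with CM-MLKL (log2 fold change -0.89, SE 0.367, adjusted p = 0.704, edgeR), and the log2 fold change was -0.93 without CM-Vector replicate 1 (adjusted p = 0.181). All CM-MLKL libraries were below all CM-Vector libraries. KLF4, an epithelial Krüppel-like factor, was at 76.1, 29.7 and 38.4 CPM with CM-Vector and 24.0, 25.5 and 29.96 CPM with CM-MLKL, so the groups overlapped. Its log2 fold change of -0.86 (SE 0.349, adjusted p = 0.677) rested on CM-Vector replicate 1, without which it was -0.34 (adjusted p = 0.555).

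The list held 6 repressors linked to EMT, of which 5 were tested and 0 passed in edgeR with or without CM-Vector replicate 1. Of these 5, 3 had a positive log2 fold change over 6 libraries, against 6255 of 14046 genes. Without that library 5 did, against 7855 of 14303 genes. TWIST2 was at 6.52, 5.62 and 6.64 CPM with CM-Vector and 9.88, 13.6 and 10.4 CPM with CM-MLKL, so its groups did not overlap. Its log2 fold change was 0.85 (SE 0.300, adjusted p = 0.525), and 0.91 without CM-Vector replicate 1 (adjusted p = 0.133), where it passed with the GC and length offsets (1.07, adjusted p = 0.00631). The other repressors and the factor GRHL2, an activator of claudin genes in epithelia, fall outside the rule for named genes and were added after their values had been seen. SNAI1 was at 6.27, 43.5 and 43.1 CPM with CM-Vector and 55.1, 89.6 and 48.6 CPM with CM-MLKL, so its groups did not overlap, and the log2 fold change was 1.06 (SE 0.570, adjusted p = 0.933), or 0.60 without CM-Vector replicate 1. For ZEB1 the log2 fold change stood at 0.36 (SE 0.415, adjusted p = 0.999), or 0.92 without that library. For ZEB2 it was -1.25 (SE 0.779, adjusted p = 0.999) and turned to 0.50, and for SNAI2 it was -0.05 (SE 0.719, adjusted p = 0.999) and turned to 1.002. TWIST1 and GRHL2 had 0 counts in all libraries, which allows up to 0.168 to 0.189 CPM depending on the library.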

How the data were processed

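The deposited table holds the authors' read counts for each gene, whole numbers that were not normalised and whose totals differ between libraries. Per the study's methods, RNA was extracted with Trizol, mRNA was enriched on oligo(dT) beads, libraries were made with a NEBNext Ultra kit, which keeps no strand, and sequenced on a NovaSeq instrument, and reads were filtered with fastp, assembled with StringTie and compared with DESeq2. Not given in the sources used here are the aligner, the genome build and the counting tool. Samples were grouped by the treatment in the labels. The methods describe 3 independent experiments, but the labels tie no library to one of them, so p-values measure the spread between these libraries, which may be technical.

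Of 58735 gene names, 58708 matched GENCODE 29 (GRCh38), which gave spans, exon lengths and GC content. The other 27 names look like dates and held 0.155% of all counts. Counts were kept by filterByExpr of edgeR 4.0.16 (minimum count 10, minimum total 15), scaled by TMM and tested with the quasi-likelihood test, two-sided, with group as the only term, in R 4.3.3. Benjamini-Hochberg adjustment covered every gene tested, and the threshold was an adjusted p of 0.05. Levels are TMM-scaled CPM, and intervals are approximate, from the SE. A count of 0 allows up to 3 counts, taken over library totals before TMM scaling, which covers counting error only. The tests were tried on simulated counts that had no outlying library and no trend on GC content or length. That trial cannot show how the tests behave with such a library or trend.

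The genes and lists were chosen with earlier results of these data known. Named genes were the 9 tight junction genes, the 6 other tight junction genes with the smallest p and the 3 with the highest level, the 4 regulators or partners with the smallest p, any other gene of these lists past the threshold, and the 3 genes most like the tight junction gene with the smallest p. A gene that this rule names is not reported here. Alternatives were DESeq2 size factors, library size only, DESeq2 1.42.0, limma-voom (limma 3.58.1), no filter, at least 5 CPM in 3 libraries, leaving out 1 library at a time, the replicate number as a block, and offsets from smooth trends on GC content and length, fitted for each library, with and without the block. The offsets and the DESeq2 test, each without CM-Vector replicate 1, were added after the data had been seen.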

Additional observations from a re-analysis of the deposited data

How the results depend on the processing

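With 3 libraries a group and 1 of them apart from the rest, the counts of calls moved with the settings. Of the 9 tight junction genes, edgeR called 0 over all 6 libraries with the filter on low counts and 1 without that filter. It called 0 to 1 with a library left out. When CM-Vector replicate 1 was left out, 2 were called both in DESeq2 and with the GC and length offsets. Of the other tight junction genes, edgeR called 0 over all 6 libraries with the filter, 1 without it and 0 to 2 with a library left out. DESeq2 over all 6 libraries called 1. Without CM-Vector replicate 1, DESeq2 called 2 of 32, against 3.43% of all genes. The fit with the offsets then called 4 of 32, against 8.96% of all genes. Over all genes tested, 72 were called, against 197 in DESeq2, 249 without a filter, 158 with the offsets, and with a library left out 18 to 314, the extremes being the fits that left out CM-MLKL replicate 2 and CM-Vector replicate 1. Without CM-Vector replicate 1 there were 490 in DESeq2 and 1281 with the offsets. The labels tie no library to an experiment, so the replicate numbers were not taken to pair libraries. Same-numbered libraries had correlations of their deviations from the group means of 0.171, 0.168 and -0.305. These values cannot decide on a pairing, because trends of whole libraries on GC content also enter such deviations. With the replicate block 155 genes were called, and 125 with the block and the offsets, with 0 of the 9 in either fit. ELF3 passed with the block (adjusted p = 0.0382, edgeR) and with the block and the offsets (adjusted p = 0.0409, edgeR).

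The following directions changed, and the cause was not tested. With a library left out, the log2 fold change ranged from -1.75 to 0.44 for CLDN1, -0.16 to 0.31 for CLDN4, -0.42 to 0.25 for OCLN, -0.24 to 0.70 for TJP1, -0.00020 to 0.71 for MARVELD2, -0.071 to 0.047 for YBX3 and -0.23 to 0.21 for ARHGEF2. In DESeq2 without CM-Vector replicate 1 it was 0.42 for CLDN1, -0.18 for CLDN4, 0.23 for OCLN and 0.20 for ARHGEF2, and with the offsets without that library it was 0.27 for CLDN1, -0.22 for CLDN4 and 0.14 for ARHGEF2. TJP1 was at -0.0743 with library size only and -0.0167 with at least 5 CPM in 3 libraries, a filter that left out MARVELD2. YBX3 was at 0.0102 in DESeq2, 0.0142 with the offsets and 0.0380 with the block and the offsets. CLDN3, CLDN7, CLDN12 and F11R kept their direction in all 17 alternatives, added ones included.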
